A study of Homo sapiens with 6 samples.

Results

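The genes described are 42 enzymes and transporters of central carbon metabolism: 20 of glycolysis with its glucose and lactate transporters and lactate dehydrogenase, 6 of the pentose phosphate pathway, 6 of the pyruvate dehydrogenase step and 10 of the tricarboxylic acid (TCA) cycle. They were chosen by name, and each symbol matched 1 row of the 57820 gene rows in the count table. All 42 were among the 17225 genes that passed the filter on low counts. Total RNA was sequenced from HEK293 cells, a transformed human embryonic kidney line, kept under basal conditions. The cells received either 100 µM minocycline, a tetracycline antibiotic, for 12 h (3 libraries) or DMSO vehicle for 12 h (3 libraries). Each group had replicates 1, 2 and 3, and the labels give the replicate number as a batch. All libraries come from a single cell line at 1 dose and 1 time, so the comparison shows the difference between those groups only.

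Glycolysis splits glucose into pyruvate in the cytosol and yields ATP and NADH. Lactate dehydrogenase turns pyruvate into lactate and restores NAD+, and monocarboxylate transporters carry lactate across the plasma membrane. The pentose phosphate pathway branches off at glucose 6-phosphate and supplies NADPH and ribose. In mitochondria the pyruvate dehydrogenase complex makes acetyl-CoA, which the TCA cycle oxidises. Pyruvate dehydrogenase kinases switch the complex off, and the kinase PDK1, like many glycolytic genes, is a known target of hypoxia-inducible factor. HEK293 cells in culture, like most proliferating lines, take up glucose and release lactate.

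Each library held between 17303180 and 17835756 gene counts. Levels are given as CPM, each gene's counts scaled to the library total with a trimmed-mean (TMM) factor. In RNA from bulk cells, a change in how many cells express a gene and a change per cell cannot be told apart. All 8 measured genes of an embryonic kidney and HEK293 list were detected, among them PAX2 with 48 to 93 counts and KRT8 with 12083 to 17334 counts a library. Of 7 genes of other cell types, PTPRC and CD3E had 3 counts each over all libraries and ALB 11, while the collagen gene COL1A1 had 927 to 1428 counts a library. Vehicle replicate 1 stood apart from the other vehicle replicates: 84 genes of ribosomal proteins held 8.32%, 7.33% and 10.8% of all counts in minocycline replicates 1, 2 and 3, against 7.39%, 11.0% and 12.2% in vehicle replicates 1, 2 and 3. Results that rest on that library are given below with and without it.

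None of the 42 genes passed an adjusted p of 0.05 between minocycline-treated and vehicle cells (edgeR quasi-likelihood test, Benjamini-Hochberg over all 17225 genes), against 0.0522% of all genes tested. Their adjusted p-values lay between 0.820 and 0.998 by that edgeR test. The fitted level was higher with minocycline for 9 genes and lower for 33, with a median log2 fold change of -0.14, beside 0.01 over all genes tested. The split was 16 higher and 26 lower, with a median of -0.04, when 1 surrogate variable was in the model, and 17 higher and 25 lower, with a median of -0.07, when only library size was used for scaling. The median was -0.23 without vehicle replicate 1 and -0.07 without vehicle replicate 3. Every one of the 42 fitted changes was smaller than 1.5-fold in either direction. The 95% interval lay wholly within a 1.5-fold change either way for 27 of the 42, beside 7000 of all 17225 genes. It lay within a 2-fold change for 39 of the 42, beside 13396 of all 17225 genes. Interval widths were not compared at matched expression level. The 3 genes whose intervals reached beyond a 2-fold change were SLC2A1, SLC16A1 and ALDOC.

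**Figure D1:**
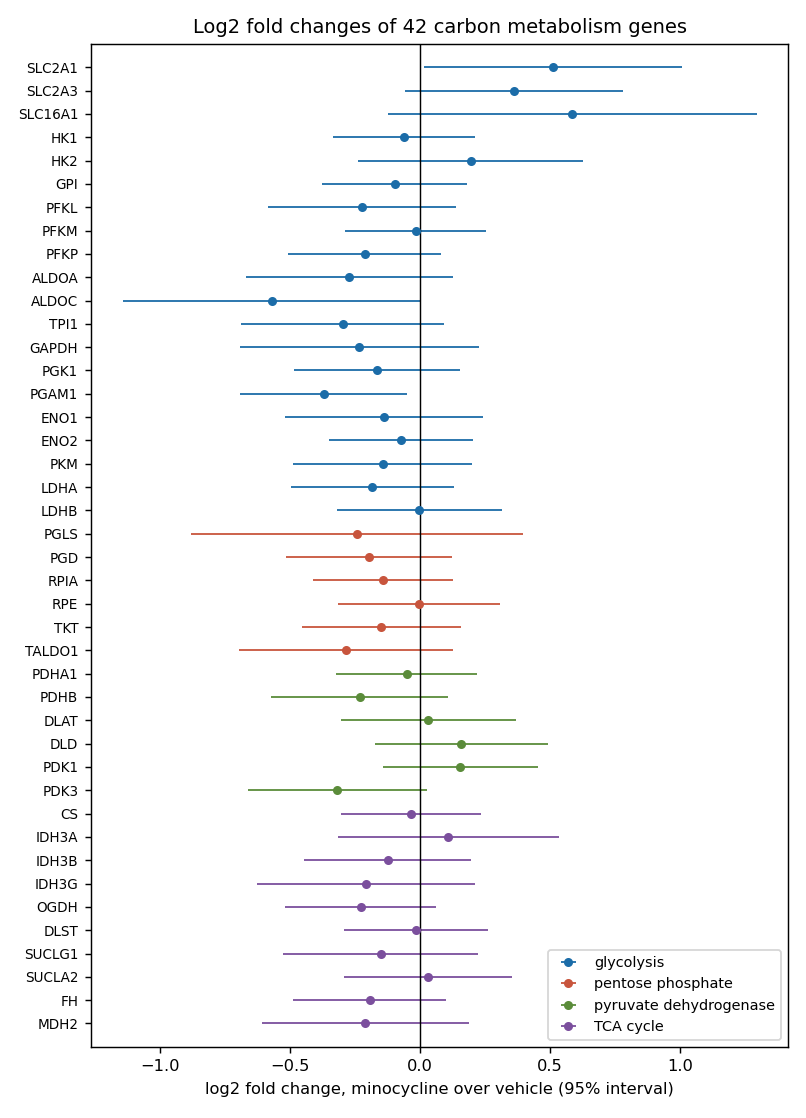
Log2 fold change of each of the 42 genes, minocycline over vehicle, with its 95% interval from the edgeR fit (3 libraries a group), coloured by pathway. All points lie between -0.57 (ALDOC) and 0.58 (SLC16A1), and 40 of the 42 intervals include 0.

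An unadjusted p under 0.05, which 4.70% of all genes tested had, was reached by 2 of the 42 genes (4.76%), SLC2A1 with a higher and PGAM1 with a lower fitted level. The 3 minocycline libraries and the 3 vehicle libraries did not overlap in CPM for 6 of the 42 genes (14.3%), beside 9.31% of all genes. PDK1 was the 1 gene above in all minocycline libraries, beside 5.74% of all genes. PGAM1, LDHA, RPIA, PDK3 and OGDH were the 5 below, beside 3.56% of all genes. None of these 6 passed the adjusted threshold.

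The upstream sequences of 5 of those 6 genes are shown because their libraries separated by treatment. The sixth, OGDH, had no entry. Each is the 250 bases before a RefSeq transcription start on GRCh38.p14, plus strand, written 5′ to 3′. Capitals mark ACGTG, read on either strand (CACGT is its reverse complement) and written out to CACGTG, the E-box, where the 2 motifs overlap. ACGTG is a form of the hypoxia response element core, and the form GCGTG was neither searched nor marked. The windows are chr11:18394313-18394562 for LDHA, chr2:172555840-172556089 for PDK1, chrX:24465036-24465285 for PDK3, chr10:97427568-97427817 for PGAM1 and chr2:88691423-88691672 for RPIA.
LDHA: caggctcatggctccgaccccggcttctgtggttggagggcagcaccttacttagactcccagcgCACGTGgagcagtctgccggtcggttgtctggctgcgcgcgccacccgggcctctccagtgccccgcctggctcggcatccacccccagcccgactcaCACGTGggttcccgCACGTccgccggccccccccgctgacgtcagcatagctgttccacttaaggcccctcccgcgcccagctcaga
PDK1: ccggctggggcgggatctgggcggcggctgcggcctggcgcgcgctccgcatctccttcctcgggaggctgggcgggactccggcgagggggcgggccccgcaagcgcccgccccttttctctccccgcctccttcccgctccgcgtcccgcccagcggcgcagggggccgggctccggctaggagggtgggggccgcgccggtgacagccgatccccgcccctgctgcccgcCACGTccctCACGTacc
PDK3: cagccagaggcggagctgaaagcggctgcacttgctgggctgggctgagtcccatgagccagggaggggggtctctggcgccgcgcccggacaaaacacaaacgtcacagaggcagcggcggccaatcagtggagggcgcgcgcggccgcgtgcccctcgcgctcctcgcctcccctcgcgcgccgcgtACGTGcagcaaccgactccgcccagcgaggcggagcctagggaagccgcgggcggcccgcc
PGAM1: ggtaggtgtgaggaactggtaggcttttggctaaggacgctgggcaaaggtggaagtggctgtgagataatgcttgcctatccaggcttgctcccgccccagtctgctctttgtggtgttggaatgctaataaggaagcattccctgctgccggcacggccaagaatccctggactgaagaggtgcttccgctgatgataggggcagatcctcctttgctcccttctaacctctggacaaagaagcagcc
RPIA: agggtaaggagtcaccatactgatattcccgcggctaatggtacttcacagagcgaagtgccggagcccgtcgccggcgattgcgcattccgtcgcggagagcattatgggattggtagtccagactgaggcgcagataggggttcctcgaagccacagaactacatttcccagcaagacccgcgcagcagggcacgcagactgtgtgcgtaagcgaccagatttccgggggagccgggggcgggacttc
LDHA has 3 such stretches, 2 of them E-boxes, PDK1 has 2 and PDK3 has 1, while the PGAM1 and RPIA windows hold none. The PGAM1 window matched the start of only 1 annotated transcript, and PGAM1 starts outside it were not searched. LDHA and PDK1 each have 2 RefSeq windows, and the one matching more annotated transcript starts is printed. Of the 42 genes, 39 had an entry among the RefSeq windows, and SLC16A1, SLC2A3 and OGDH did not. ACGTG on either strand was in 20 of the 61 windows of these 39 genes (32.8%), against 18.5% of all 35116 windows. Only 53 of the 61 windows matched an annotated transcript start, and the GAPDH window, which holds the motif, did not. While 30 of the 39 genes had 1 window, the rest had several, some of them overlapping. By gene that is 17, of which 11 belong to glycolysis, 4 to the pyruvate dehydrogenase step and 1 each to the pentose phosphate pathway and the TCA cycle. CACGTG, each copy of which also holds ACGTG, was in 9.84% of these windows, against 6.34% of all windows. A further motif searched on both strands, the amino acid response element core TGATGNAA, was in 3.28% of these windows (HK1 alone), against 3.14% of all windows. Common promoter motifs were also more frequent in these windows: the GC box GGGCGG was in 60.7%, against 42.6% of all windows, and the CCAAT box in 39.3%, against 32.0% (both strands). A match describes the letters of the window and not a bound site.

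The carriers of glucose and lactate had the highest fitted fold changes of the 42 genes. SLC16A1 encodes MCT1, a proton-linked carrier of lactate and pyruvate (chr1:113454469-113500215 on hg19, minus strand). It had 147, 168 and 143 CPM in minocycline replicates 1, 2 and 3, against 168, 73.6 and 64.0 CPM in vehicle replicates 1, 2 and 3. Vehicle replicates 2 and 3 lay below all minocycline libraries, and vehicle replicate 1 was level with the highest of them. The means were 153 ± 13.2 CPM with minocycline and 102 ± 57.3 CPM with vehicle (SD, n = 3 each), a log2 fold change of 0.58 ± 0.32 (SE; 95% interval -0.13 to 1.29; edgeR adjusted p = 0.820). Within batches the log2 difference was -0.19 in batch 1, 1.19 in batch 2 and 1.16 in batch 3.

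SLC2A1 encodes GLUT1, the main glucose carrier of most cultured lines (chr1:43391024-43424564 on hg19, minus strand). It had 39.7, 39.5 and 30.2 CPM with minocycline, against 34.6, 21.6 and 20.5 CPM with vehicle. Vehicle replicate 1 again lay within the minocycline range and the other vehicle replicates below it. The log2 fold change was 0.51 ± 0.22 (SE; 95% interval 0.02 to 1.01), with an edgeR p of 0.0446 and an adjusted p of 0.820. SLC2A3, encoding the high-affinity glucose carrier GLUT3, had 35.2, 31.5 and 27.7 CPM with minocycline and 30.9, 21.6 and 21.0 CPM with vehicle. Its log2 fold change was 0.36 ± 0.19 (SE; edgeR adjusted p = 0.820). The order of libraries was the same kind as for SLC2A1: vehicle replicates 2 and 3 lowest, and vehicle replicate 1 inside the minocycline range. Both glucose carriers were higher with minocycline in each of the 3 batches, by 0.20, 0.87 and 0.56 for SLC2A1 and 0.19, 0.55 and 0.39 for SLC2A3 in batches 1, 2 and 3 (log2 differences). SLC2A14, a near copy of SLC2A3, had only 9 to 16 counts a library.

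The enzymes that commit glucose to glycolysis differed less. HK1, the hexokinase that phosphorylates glucose in most tissues, had 177, 179 and 154 CPM with minocycline, against 175, 175 and 184 CPM with vehicle (log2 fold change -0.06 ± 0.12 SE). HK2, its more inducible relative, had 22.0, 22.5 and 15.5 CPM with minocycline, against 19.5, 14.6 and 18.4 CPM with vehicle (log2 fold change 0.19 ± 0.19 SE). The groups overlapped for both hexokinases, and neither passed the test. GPI, which converts glucose 6-phosphate to fructose 6-phosphate, had a log2 fold change of -0.10 ± 0.12 (SE). Of the phosphofructokinase subunits, which catalyse the committed step, the log2 fold changes were -0.22 ± 0.16 for PFKL, -0.02 ± 0.12 for PFKM and -0.21 ± 0.13 for PFKP (SE). None of these 6 genes passed the adjusted threshold.

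From aldolase to pyruvate kinase every gene had a lower fitted level with minocycline and none passed. PGAM1, the phosphoglycerate mutase (chr10:99185948-99193201 on hg19, plus strand), had 593, 707 and 577 CPM with minocycline, against 746, 839 and 841 CPM with vehicle. All minocycline libraries lay below all vehicle libraries. The means were 626 ± 71.2 CPM with minocycline and 809 ± 54.3 CPM with vehicle (SD, n = 3 each), a log2 fold change of -0.37 ± 0.14 (SE; 95% interval -0.69 to -0.05). The edgeR p was 0.0281 before and 0.820 after adjustment. The difference was negative in each batch, at -0.33, -0.25 and -0.54 in batches 1, 2 and 3. PGAM4, a retrogene close to PGAM1 in sequence, had 13 to 28 counts a library. Pseudogenes of 21 of the 42 genes have 125 rows of their own in the table, and they held at most 1.30% of the counts of a gene and its pseudogenes together (TPI1).

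GAPDH, the glyceraldehyde phosphate dehydrogenase that makes the NADH of glycolysis and is often used as a reference transcript, had 1684, 1580 and 1716 CPM with minocycline, against 1380, 2158 and 2314 CPM with vehicle. The 3 minocycline libraries lay between vehicle replicate 1 and the other vehicle replicates. The means were 1660 ± 71.3 CPM with minocycline and 1951 ± 500.4 CPM with vehicle (SD, n = 3 each), a log2 fold change of -0.23 ± 0.20 (SE; 95% interval -0.69 to 0.22). ALDOC, the brain-type aldolase, had 6.34, 5.71 and 8.06 CPM with minocycline, against 6.58, 11.4 and 11.9 CPM with vehicle, and a log2 fold change of -0.57 ± 0.25 (SE; 95% interval -1.14 to 0.00; edgeR adjusted p = 0.820). ALDOA, the main aldolase here, had 1132, 1095 and 1198 CPM with minocycline, against 1059, 1487 and 1590 CPM with vehicle. TPI1, triose phosphate isomerase, followed the same order, with 847, 796 and 849 CPM with minocycline and 788, 1081 and 1194 CPM with vehicle. In all 3 the 2 highest libraries were vehicle replicates 2 and 3. The log2 fold changes of the others were -0.17 ± 0.14 for the phosphoglycerate kinase PGK1, -0.14 ± 0.17 for the enolase ENO1, -0.07 ± 0.12 for the neuronal enolase ENO2 and -0.14 ± 0.15 for the pyruvate kinase PKM (SE).

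Lactate dehydrogenase is a tetramer of LDHA and LDHB subunits. LDHA (chr11:18416107-18429972 on hg19, plus strand) had 1045, 1193 and 1122 CPM with minocycline, against 1202, 1275 and 1337 CPM with vehicle. The groups did not overlap, but the highest minocycline library and the lowest vehicle library lay close together. The log2 fold change was -0.18 ± 0.14 (SE; 95% interval -0.50 to 0.13; edgeR adjusted p = 0.825), with differences of -0.20, -0.10 and -0.25 in batches 1, 2 and 3. LDHB had 867, 939 and 1013 CPM with minocycline, against 867, 952 and 1006 CPM with vehicle. Its groups had nearly the same values, and the 95% interval of its log2 fold change was -0.32 to 0.31.

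**Figure D2:**
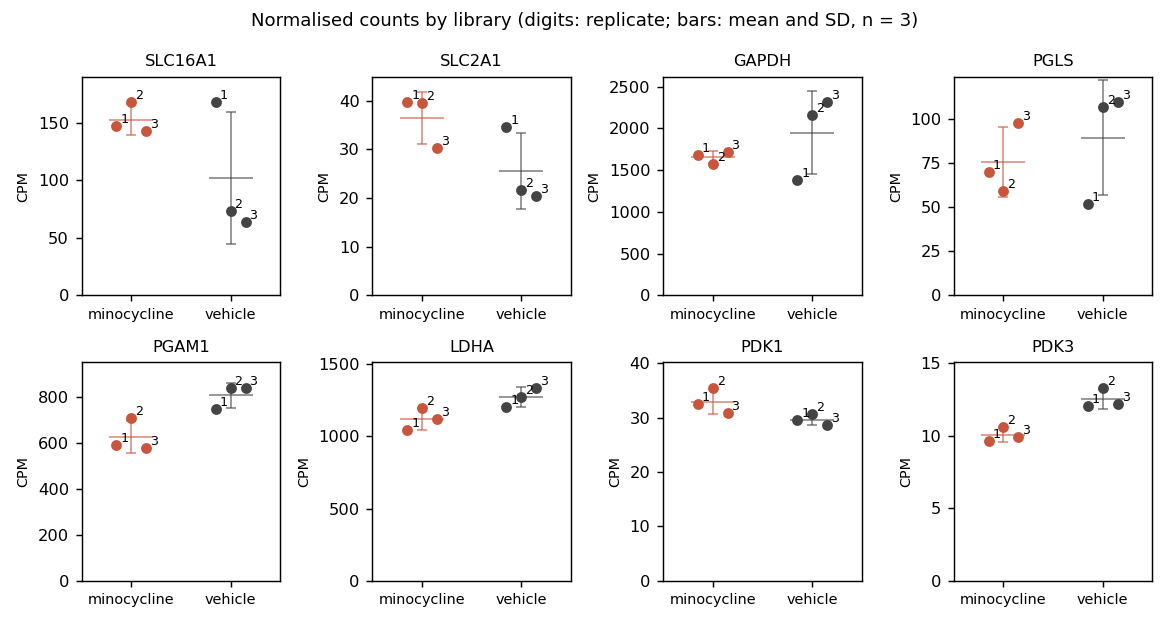
CPM of 8 genes in the 3 minocycline and 3 vehicle libraries (each point is a library, its digit the replicate; bars give mean and SD; axes start at 0). In SLC16A1, SLC2A1, GAPDH and PGLS vehicle replicate 1 lies away from vehicle replicates 2 and 3, whereas in PGAM1, LDHA, PDK1 and PDK3 the groups do not overlap.

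All 6 pentose phosphate genes had a lower fitted level with minocycline, with a median log2 fold change of -0.17, and none passed the test. The median was -0.06 with 1 surrogate variable, -0.27 without vehicle replicate 1 and -0.09 without vehicle replicate 3. PGLS, which hydrolyses 6-phosphogluconolactone, varied most: it had 69.8, 59.1 and 97.7 CPM with minocycline, against 51.8, 107 and 110 CPM with vehicle. Both groups spread widely and overlapped. Its log2 fold change was -0.24 ± 0.28 (SE), the widest error in the pathway, and its differences in batches 1, 2 and 3 were 0.43, -0.86 and -0.16. TALDO1, the transaldolase, had 264, 252 and 296 CPM with minocycline, against 242, 349 and 398 CPM with vehicle, and a log2 fold change of -0.28 ± 0.18 (SE; edgeR adjusted p = 0.820). Vehicle replicate 1 was again the lowest library. PGD, the NADPH-making 6-phosphogluconate dehydrogenase, had a log2 fold change of -0.20 ± 0.14, and the transketolase TKT, the pathway's gene with the most counts, had -0.15 ± 0.14 (SE). RPIA, the ribose 5-phosphate isomerase, had 58.5, 57.8 and 55.5 CPM with minocycline, against 66.1, 58.9 and 64.6 CPM with vehicle. Its groups did not overlap, and its log2 fold change was -0.14 ± 0.12 (SE). RPE, the epimerase that acts on the same substrate, had a 95% interval of -0.32 to 0.31.

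At the pyruvate dehydrogenase step 3 genes had a higher and 3 a lower fitted level, with a median log2 fold change of -0.01. The kinases PDK1 (chr2:173420101-173473397, plus strand) and PDK3 (chrX:24483361-24568583, plus strand; both on hg19) lay on opposite sides of 0. PDK1 had 32.6, 35.6 and 30.9 CPM with minocycline, against 29.5, 30.7 and 28.7 CPM with vehicle. PDK3 had 9.62, 10.6 and 9.94 CPM with minocycline, against 12.1, 13.3 and 12.2 CPM with vehicle. Every minocycline library was above every vehicle library for PDK1 and below every one for PDK3. The means were 33.0 ± 2.38 CPM with minocycline and 29.6 ± 1.05 CPM with vehicle for PDK1, and 10.1 ± 0.502 CPM with minocycline and 12.5 ± 0.683 CPM with vehicle for PDK3 (SD, n = 3 each). The log2 fold changes were 0.15 ± 0.13 for PDK1 (SE; 95% interval -0.14 to 0.45; edgeR adjusted p = 0.828) and -0.32 ± 0.15 for PDK3 (SE; 95% interval -0.66 to 0.03; edgeR adjusted p = 0.820). The differences in batches 1, 2 and 3 were 0.14, 0.21 and 0.11 for PDK1 and -0.33, -0.33 and -0.30 for PDK3.

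The catalytic subunits overlapped between groups. PDHA1, the E1 alpha subunit that the kinases phosphorylate, had 155, 151 and 152 CPM with minocycline, against 142, 166 and 167 CPM with vehicle (log2 fold change -0.05 ± 0.12 SE). PDHB, the E1 beta subunit, had 80.7, 79.7 and 89.4 CPM with minocycline, against 78.7, 107 and 108 CPM with vehicle (log2 fold change -0.23 ± 0.15 SE). Vehicle replicate 1 was the lowest library for both subunits. The log2 fold changes were 0.03 ± 0.15 for the E2 acetyltransferase DLAT and 0.16 ± 0.15 for DLD, the E3 dehydrogenase shared with the 2-oxoglutarate complex (SE). For those 2 genes vehicle replicates 2 and 3 were the lowest libraries.

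Of the 10 TCA cycle genes 2 had a higher and 8 a lower fitted level, with a median log2 fold change of -0.14, and none passed the test. The median was -0.01 with 1 surrogate variable, where 6 of the 10 genes changed sign. It was -0.24 without vehicle replicate 1, -0.03 without vehicle replicate 3 and -0.09 without minocycline replicate 2. CS, the citrate synthase that opens the cycle, had 366, 364 and 341 CPM with minocycline, against 354, 359 and 385 CPM with vehicle, and a 95% interval of -0.30 to 0.24. OGDH, the E1 subunit of the 2-oxoglutarate complex, had 68.8, 62.8 and 57.8 CPM with minocycline, against 69.2, 72.1 and 80.6 CPM with vehicle. The OGDH groups did not overlap, though minocycline replicate 1 and vehicle replicate 1 nearly touched. Its log2 fold change was -0.23 ± 0.13 (SE; 95% interval -0.52 to 0.06; edgeR adjusted p = 0.820), with differences of -0.01, -0.20 and -0.48 in batches 1, 2 and 3. DLST, the E2 subunit of the same complex, had a log2 fold change of -0.01 ± 0.12 (SE).

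The 3 subunits of NAD-dependent isocitrate dehydrogenase did not share a direction. IDH3A, the catalytic subunit, had 44.8, 50.5 and 37.0 CPM with minocycline, against 51.6, 36.8 and 34.3 CPM with vehicle. IDH3G, a regulatory subunit, had 81.5, 77.3 and 90.6 CPM with minocycline, against 68.7, 108 and 112 CPM with vehicle. Vehicle replicate 1 was the highest library for IDH3A and the lowest for IDH3G. The log2 fold changes were 0.11 ± 0.19 for IDH3A, -0.12 ± 0.14 for IDH3B and -0.21 ± 0.19 for IDH3G (SE). The exons of IDH3A overlap those of ACSBG1 over 2608 bases and those of IDH3G overlap SSR4 over 267 bases. Among the 42 genes, 20 share exon bases with another gene of the table, 18 of them with a gene on the opposite strand. Whether the counting used strand is not given in the sources used here. MDH2, the mitochondrial malate dehydrogenase, had 378, 364 and 419 CPM with minocycline, against 338, 469 and 537 CPM with vehicle (log2 fold change -0.21 ± 0.18 SE). The remaining log2 fold changes were -0.15 ± 0.17 for SUCLG1 and 0.03 ± 0.14 for SUCLA2, both subunits of succinyl-CoA ligase, and -0.19 ± 0.13 for the fumarase FH (SE).

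Summed over the 42 genes, the share of all counts was 1.63%, 1.69% and 1.62% in minocycline replicates 1, 2 and 3, against 1.60%, 1.78% and 1.86% in vehicle replicates 1, 2 and 3. Glycolysis genes took most of it, with 1.34 ± 0.0413% of counts with minocycline and 1.43 ± 0.112% with vehicle (SD, n = 3 each). The pentose phosphate genes took 0.120 ± 0.00285% with minocycline and 0.130 ± 0.0135% with vehicle. The pyruvate dehydrogenase genes took 0.0481 ± 0.00209% with minocycline and 0.0464 ± 0.00241% with vehicle, and the TCA cycle genes 0.142 ± 0.000931% with minocycline and 0.146 ± 0.0100% with vehicle. In each pathway the group means differed by less than the larger SD of the 2 groups. In each pathway except the pyruvate dehydrogenase step the vehicle libraries spread more than the minocycline libraries by over 2 times in SD.

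On the scale of CPM per kilobase of annotated exon, the highest levels were those of GAPDH, with 693 ± 29.7 with minocycline and 814 ± 208.8 with vehicle, and ENO1, with 579 ± 21.4 with minocycline and 637 ± 92.4 with vehicle (SD, n = 3 each). The ranges of mean ± SD of GAPDH and ENO1 overlapped in vehicle cells but not with minocycline. Both genes were measured in the same libraries, and they were not compared within libraries. By the length of the canonical transcript ENO1 came first. TPI1, ALDOA, PGAM1 and LDHB followed, at 378 ± 77.8, 360 ± 73.5, 318 ± 21.4 and 316 ± 23.5 CPM per kilobase in vehicle cells, with overlapping ranges of mean ± SD. This order too depended on the length used. By canonical transcript length PKM came next after ENO1 and GAPDH, at 915 ± 83.4 in vehicle cells. PGAM1 then ranked 8th, at 449 ± 30.1. The most abundant genes outside glycolysis were MDH2, at 106 ± 7.77 with minocycline and 123 ± 27.7 with vehicle, and TALDO1, at 93.1 ± 7.72 with minocycline and 113 ± 27.3 with vehicle. IDH3A stood at 5.99 ± 1.37 CPM per kilobase in vehicle cells, below IDH3B at 51.0 ± 7.83 and IDH3G at 35.6 ± 8.80. The lowest were PDK3, at 0.58 ± 0.029 with minocycline and 0.72 ± 0.039 with vehicle, and PDK1, at 2.22 ± 0.160 with minocycline and 2.00 ± 0.071 with vehicle. By canonical transcript length, added after the data were seen, PDK1 and HK2 were the lowest in vehicle cells, at 2.11 ± 0.075 and 3.10 ± 0.456. On that scale PDK3 stood above both, at 7.20 ± 0.393. The annotated exons of PDK3 cover 17456 bases but its canonical transcript 1741.

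**Figure D3:**
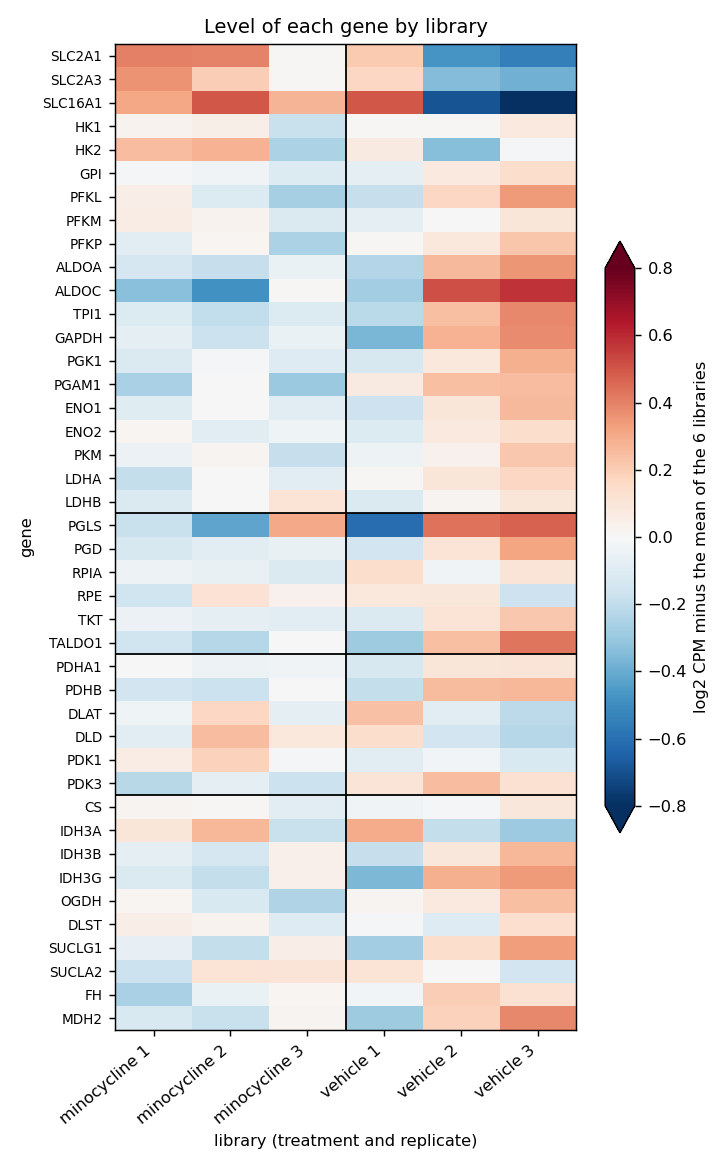
Log2 CPM of each gene in each library minus the mean over the 6 libraries, with pathways separated by horizontal lines and minocycline left of vehicle. Vehicle replicate 1 differs in sign from vehicle replicates 2 and 3 in SLC16A1, GAPDH, PGLS and MDH2, among others.

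The share each isoenzyme took of its family's counts compares genes within a library. A family here holds only its listed members, so relatives such as PDK2, HKDC1 and ENO3 are left out. With 3 libraries a group the smallest p that the exact two-sided permutation test allows is 0.10, so none of the 9 shares compared could pass 0.05. PDK1 took 77.2%, 77.0% and 75.6% of the PDK1 and PDK3 counts in minocycline replicates 1, 2 and 3, against 71.0%, 69.8% and 70.1% in vehicle replicates 1, 2 and 3. The groups did not overlap, and the means were 76.6 ± 0.863% with minocycline and 70.3 ± 0.618% with vehicle (SD, n = 3 each), a difference of 6.33 points (exact permutation p = 0.1, 0.3 after Benjamini-Hochberg over the 9 shares). The 95% Wilson intervals of single libraries, which cover counting error only, reached down to 72.3% in minocycline replicate 3 and up to 74.1% in vehicle replicate 1, and so overlapped. LDHA took 54.6%, 56.0% and 52.5% of the LDHA and LDHB counts with minocycline, against 58.1%, 57.3% and 57.1% with vehicle. These groups too did not overlap, with a difference of -3.10 points (exact permutation p = 0.1). PFKM took 17.6 ± 0.379% of the phosphofructokinase counts with minocycline and 15.7 ± 0.843% with vehicle, also without overlap (exact permutation p = 0.1). PDK1, PDK3 and LDHA were already among the genes whose groups did not overlap, so the PDK1 and LDHA shares are not a separate result. How often shares of other gene pairs separate was not computed.

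The other families overlapped between groups. SLC2A1 took 53.6 ± 1.81% of the SLC2A1 and SLC2A3 counts with minocycline and 50.7 ± 1.87% with vehicle, and HK1 took 89.6 ± 1.09% of the hexokinase counts with minocycline and 91.1 ± 1.17% with vehicle (SD, n = 3 each). ALDOA made up 99.4% of aldolase counts with minocycline and 99.3% with vehicle, and ENO1 97.6% of enolase counts with minocycline and 97.7% with vehicle. These are shares of counts and not of molecules, since longer transcripts give more counts. Scaled by annotated exon length the mean PDK1 share was 79.4% with minocycline and 73.6% with vehicle, and scaled by canonical transcript length 28.9% with minocycline and 22.7% with vehicle. Which of PDK1 and PDK3 was the more abundant thus depended on the length used. A fixed length cannot alter the direction between groups.

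**Figure D4:**
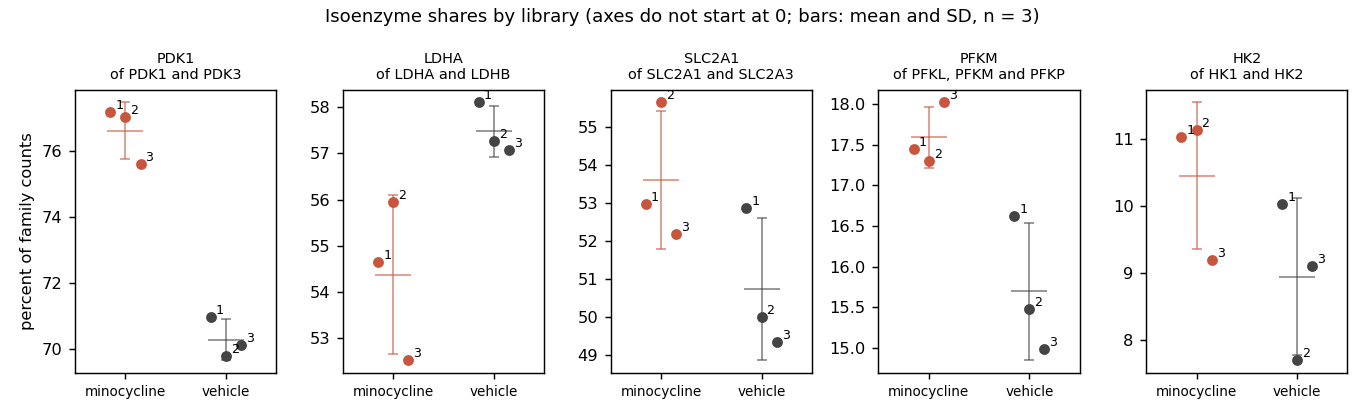
Share of family counts, over the family members listed here, taken by 1 isoenzyme in each library, in percent. Points are libraries, digits replicates, and bars mean and SD (n = 3). Axes do not start at 0. PDK1, LDHA and PFKM separate by treatment, and SLC2A1 and HK2 overlap.

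Vehicle replicate 1 set the spread of many vehicle values. Set against the mean of vehicle replicates 2 and 3 on the log2 scale, vehicle replicate 1 was higher by 1.29 for SLC16A1, 0.72 for SLC2A1 and 0.54 for both SLC2A3 and IDH3A. The same difference was -1.06 for PGLS, -0.83 for ALDOC, -0.70 for GAPDH and -0.67 for IDH3G, while for PDK1 it was -0.01. Without vehicle replicate 1, 3 of the 42 genes were called higher with minocycline (7.14%, beside 9.52% of the 17658 genes tested then) and 10 were called lower (23.8%, beside 8.34%). The higher genes were SLC16A1 at 1.15 ± 0.13 (edgeR adjusted p = 0.000116), SLC2A1 at 0.79 ± 0.15 (adjusted p = 0.00484) and SLC2A3 at 0.56 ± 0.15 (adjusted p = 0.0182), as log2 fold change ± SE. The lower genes were ALDOA, ALDOC, TPI1, GAPDH, PGAM1, PGLS, TALDO1, PDHB, IDH3G and MDH2, with log2 fold changes of -0.80 (ALDOC, edgeR adjusted p = 0.0116) to -0.37 (PDHB, adjusted p = 0.0362). GAPDH then had -0.43 ± 0.13 and PGAM1 -0.43 ± 0.13. These 13 genes were called in none of the other 14 alternatives. Vehicle replicate 1 was singled out from these same data, and on the first principal component it lay nearest minocycline replicate 2. The p-values without it, here and below, are therefore descriptive and not a test of treatment. Against vehicle replicate 1 alone, in batch 1, the median log2 difference was 0.07 over glycolysis genes, whereas it was -0.10 in batch 2 and -0.30 in batch 3.

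Longer transcripts tended to be higher in that library. Over the 42 genes, canonical transcript length and the difference of vehicle replicate 1 from the other vehicle replicates had a Spearman rho of 0.70 and a Pearson r of 0.59, beside 0.45 and 0.36 over 16504 genes. These describe 1 library across genes, which share its depth and preparation and are not independent. The median canonical length was 3753 bases for the 3 genes called higher without vehicle replicate 1, 1429 for the 10 called lower and 2907 for the other 29. Length was also related to the fitted log2 fold change with all libraries, with a rho of 0.64 over the 42 genes and 0.28 over 16515 genes. The part of length, of the ribosomal protein share and of vehicle replicate 1 in the fold changes above was not tested.

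**Figure D5:**
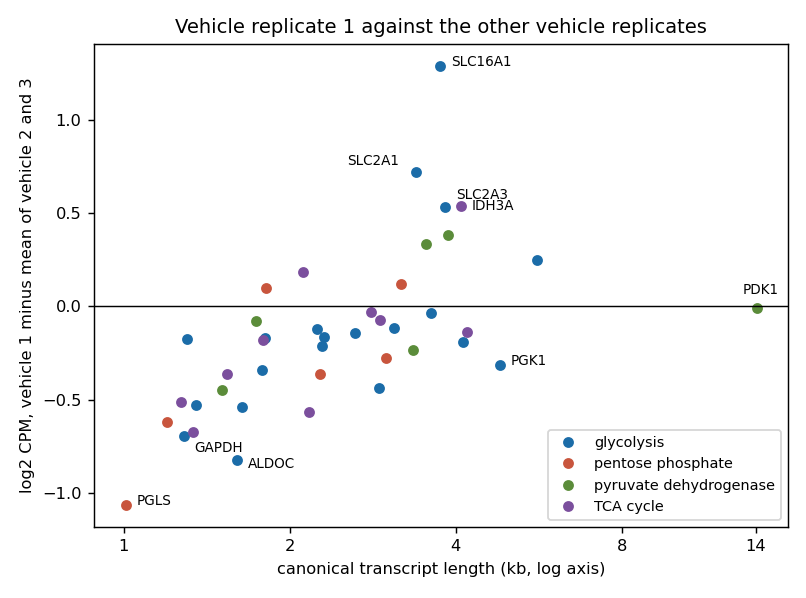
Log2 CPM of vehicle replicate 1 minus the mean of vehicle replicates 2 and 3 for the 42 genes, against canonical transcript length in kilobases (log axis), coloured by pathway. PGLS, the shortest, lies lowest at -1.06 and SLC16A1 highest at 1.29, while PDK1, the longest, lies at -0.01.

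A list of 76 further genes of these pathways was all present in the table, and 62 passed the filter on low counts. None was called by the edgeR test, 27 had a higher and 35 a lower fitted level with minocycline, and the median log2 fold change was -0.09. By group, 12 of 20 further glycolysis genes were higher (median 0.07), 2 of 7 further pentose phosphate genes (median -0.10), 7 of 13 further pyruvate-handling genes (median 0.02) and 6 of 22 further TCA cycle genes (median -0.15). An unadjusted p under 0.05 was reached by 5 of the 62 (8.06%, beside 4.70% of all genes tested), and 6 had groups that did not overlap (9.68%, beside 9.31%).

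PCK2, the mitochondrial phosphoenolpyruvate carboxykinase and a known target of the amino acid response, had the smallest p of these. It had 86.0, 68.5 and 86.6 CPM with minocycline, against 17.0, 31.3 and 35.5 CPM with vehicle. Every minocycline library was well above every vehicle library. The means were 80.3 ± 10.3 CPM with minocycline and 27.9 ± 9.73 CPM with vehicle (SD, n = 3 each), a log2 fold change of 1.53 ± 0.25 (SE). It missed the threshold, with an edgeR adjusted p of 0.120. It passed once the batch was a term of the model, as a replicate block (log2 fold change 1.58, edgeR adjusted p = 0.0250), and so it did without vehicle replicate 1 (1.26, adjusted p = 0.000117) and with DESeq2 (1.51, adjusted p = 1.16e-05). Over the 15 alternatives its adjusted p ran up to 0.867 and it passed in 5.

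The next smallest p-values belonged to HKDC1, H6PD and SLC25A10, each with an edgeR adjusted p of 0.820. H6PD, which makes NADPH in the endoplasmic reticulum, had 78.0, 65.5 and 60.1 CPM with minocycline, against 55.5, 42.9 and 44.1 CPM with vehicle (log2 fold change 0.51 ± 0.16 SE). Its groups did not overlap. HKDC1, a hexokinase relative, had 12, 13 and 11 counts with minocycline, against 5, 1 and 5 counts with vehicle, too few for a firm fold. SLC25A10, the mitochondrial dicarboxylate carrier, had 42.6, 35.0 and 41.8 CPM with minocycline, against 38.5, 62.9 and 63.0 CPM with vehicle (log2 fold change -0.46 ± 0.20 SE), and its groups overlapped through vehicle replicate 1. Without that library H6PD (0.64, edgeR adjusted p = 0.00667) and SLC25A10 (-0.66, adjusted p = 0.00464) passed.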

How the data were processed

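The deposited table holds whole-number counts per gene for 6 total RNA libraries. The build is hg19 per the submitters' processing notes. Per the labels' protocols, the RNeasy Mini Kit, a NEBNext Ultra II RNA library kit and paired-end sequencing were used. The aligner, the counter and the strand setting are not given in the sources used here. Names, lengths and overlaps came from the GENCODE annotation on GRCh37, and promoter windows from RefSeq on GRCh38.p14.

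Counts were tested with edgeR 4.0.16 (R 4.3.3; default filter on low counts, TMM scaling, quasi-likelihood test, treatment as the only term) on all 17225 genes kept, with Benjamini-Hochberg adjustment and a threshold of 0.05. Alternatives were 3 other scalings (RLE, upper quartile, library totals alone), DESeq2 1.42.0, limma-voom from limma 3.58.1, no filter, at least 10 counts in every library, a replicate block, 1 surrogate variable (sva 3.50.0) and leaving out each library. Each library held 17303180 to 17835756 counts. Replicates of a group differed by more than sampling noise (chi-square per degree of freedom 5.80 to 63.6), so each counts as 1 sample. The labels call the replicates biological but do not say how cultures were separated, so p-values measure the spread between these samples.

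The labels give the replicate number as a batch, which pairs the libraries. Over all genes, the deviations of same-numbered libraries from their group means had correlations of -0.05, -0.29 and 0.30 in batches 1, 2 and 3. For differently numbered libraries they ran from -0.42 to 0.50, the highest between minocycline replicate 2 and vehicle replicate 1. On the first principal component (52.9% of the variance) vehicle replicate 1 lay at -34.9, nearest minocycline replicate 2 at -32.3. Vehicle replicates 2 and 3 lay at 31.1 and 47.1, and minocycline replicates 1 and 3 at -14.0 and 3.06.

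The genes and lists were chosen with earlier results of these data known. The text names genes past the threshold, then in each pathway those with the smallest p and the highest level, and the 4 smallest p-values among the other pathway genes; it also gives the isoenzyme families and those whose groups did not overlap. The scripts were tested on simulated data.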

Additional observations from a re-analysis of the deposited data

How the results depend on the processing

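None of the 42 genes was called in 14 of the 15 alternatives. Leaving out 1 library gave 0 to 13 called among the 42, the 13 without vehicle replicate 1. Over all genes the 9 calls became 50 with DESeq2, 94 with no filter on low counts and 91 with 1 surrogate variable, and 1 to 3154 when 1 library was left out, the 3154 without vehicle replicate 1. With the replicate block 13 genes were called and none of the 42; the block changed no other call among the pathway genes besides PCK2. The median log2 fold changes of the pathways moved with the setting. With 1 surrogate variable they were -0.05 for glycolysis, -0.06 for pentose phosphate and -0.01 for TCA cycle genes, and without vehicle replicate 1 they were -0.21, -0.27 and -0.24 for the same 3 pathways, against -0.14, -0.17 and -0.14 with all libraries and treatment alone. Without vehicle replicate 3 they were -0.06, -0.09 and -0.03, and with library-size scaling -0.06, -0.09 and -0.06. That of the pyruvate dehydrogenase genes, near 0, changed sign with library-size scaling (0.06), without vehicle replicate 1 (0.01) and without minocycline replicate 3 (0.0036).

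Of 630 log2 fold changes, 577 kept their direction and their side of the threshold, 13 passed only without vehicle replicate 1, and 40 changed sign over 17 genes. None of these 40 was called, and the largest of their log2 fold changes with all libraries was 0.24 in size. With library-size scaling, which put the median of all genes at 0.08, the log2 fold changes became 0.012 for HK1, 0.060 for PFKM, 0.0034 for ENO2, 0.073 for LDHB, 0.064 for RPE, 0.024 for PDHA1, 0.041 for CS and 0.060 for DLST. With 1 surrogate variable they became 0.010 for PFKM, 0.030 for GAPDH, 0.0033 for ENO2, 0.068 for LDHB, 0.21 for PGLS, 0.024 for PDHA1, -0.11 for DLAT, -0.091 for IDH3A, 0.022 for IDH3B, 0.051 for IDH3G, 0.058 for SUCLG1, -0.028 for SUCLA2 and 0.015 for MDH2. With at least 10 counts in every library they became 0.0041 for LDHB and 0.0012 for RPE. Leaving out 1 library gave -0.055 to 0.026 for PFKM, -0.070 to 0.051 for LDHB, -0.093 to 0.070 for RPE, -0.069 to 0.17 for DLAT, -0.012 to 0.31 for IDH3A, -0.068 to 0.044 for DLST and -0.043 to 0.12 for SUCLA2. The cause was not tested.

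ALDOC and PDK3 had the fewest counts of the 42 genes, 105 to 223 a library, so their values carry the most counting error.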
